A study of Mus musculus with 15 samples.

Results

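The genes described are the nuclear receptors of the PPAR and ERR families with their RXR partners and PGC-1 coactivators, in mouse hearts that had lost Acsl1. They are Ppara, Ppard, Pparg, Rxra, Rxrg, Ppargc1a, Ppargc1b, Esrra, Esrrb and Esrrg, chosen by gene symbol with results of the same arrays already known, among them a low Ppara in knockout hearts at 10 weeks. All 10 were measured, by 17 of the 32664 probes that carry 1 gene symbol, and the array measured 19532 genes in all. Because of that choice, values of the 10 genes in the 10-week knockouts are given as a description. P-values of the 10 genes are given only for the comparison at 2 weeks and for time in the controls. Elsewhere the number called is given and a called gene is named, as a description and not as a test. Other genes carry their p-values throughout.

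The hearts came from C57Bl/J6 male mice of 2 genotypes, Acsl1H-/- (knockout) and littermate Acsl1flox/flox (flox control). At 6 to 8 weeks of age all mice, controls included, were injected with tamoxifen at 75 mg/kg on 4 consecutive days. Ventricles were taken 2 weeks later from 4 flox controls and 3 knockouts, and 10 weeks later from 4 flox controls and 4 knockouts. Acsl1 encodes a long-chain acyl-CoA synthetase, which activates fatty acids before oxidation. The promoter of the inducible recombinase is not named in the labels, no group carried the recombinase without the deletion, and Acsl1 itself was not analysed here. An effect of the knockout below therefore covers both the deletion and the recombinase.

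PPAR receptors are transcription factors that bind fatty acids and their derivatives as ligands. They pair with an RXR receptor on DNA and switch on genes for the uptake, storage and oxidation of fat. ERR receptors are active without an added ligand and bind as monomers or dimers near genes of oxidative phosphorylation and the citric acid cycle. PGC-1 coactivators dock on both families and set much of the oxidative capacity of heart muscle.

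Ventricle RNA in Cy5 competed on each array with reference RNA of whole mice in Cy3, and the deposited numbers were read as log2 of heart over reference. Neither base nor direction is stated, so the direction is likely rather than settled, and with the opposite sign every higher value would be a lower one. Each probe was centred, with a median of 0 over the 15 arrays for all 41267 probes, so values compare arrays within a gene and say nothing of which gene is expressed more. For the same reason the levels of heart markers could not be used to check the tissue label. Markers of atrium (Myl7, Myl4, Nppa, Sln) had a mean of 3.3 in flox control 2 weeks replicate 1 and at most 0.93 in the other controls of that time, so that array stands apart. The number of arrays limits the precision of every value. In ventricle tissue, fewer cells of a type and less RNA per cell cannot be told apart.

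Start-site sequences are shown for the 2 genes whose knockout values lay below every control at 10 weeks, Ppara and Rxra, and for Esrra, which shares a motif with Ppara. Each run is 300 bases from RefSeq on build GRCm38.p6, read along the gene from 250 bases before the start site. Capitals mark matches, on either strand, to AGGTCA, the hexamer on which PPAR, RXR and ERR receptors dock, and to GCATGCGC, the core of the NRF1 element found near many genes for mitochondrial proteins. The NRF1 core was added to the search after the Ppara sequence had been seen.
Ppara, chr15:85735526-85735825, plus strand: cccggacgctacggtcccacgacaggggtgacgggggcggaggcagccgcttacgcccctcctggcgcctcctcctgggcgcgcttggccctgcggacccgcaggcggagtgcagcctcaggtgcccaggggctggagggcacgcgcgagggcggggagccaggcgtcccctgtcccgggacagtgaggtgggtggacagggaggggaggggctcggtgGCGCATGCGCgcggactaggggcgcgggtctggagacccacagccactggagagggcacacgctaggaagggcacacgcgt
Rxra, second start site, chr2:27709042-27709341, plus strand: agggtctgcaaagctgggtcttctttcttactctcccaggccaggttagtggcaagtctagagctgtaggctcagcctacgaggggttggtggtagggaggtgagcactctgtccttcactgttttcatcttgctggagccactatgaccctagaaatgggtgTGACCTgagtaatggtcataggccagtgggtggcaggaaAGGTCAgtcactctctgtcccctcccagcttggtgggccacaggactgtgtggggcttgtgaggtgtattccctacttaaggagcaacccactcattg
Esrra, chr19:6921759-6922058, minus strand: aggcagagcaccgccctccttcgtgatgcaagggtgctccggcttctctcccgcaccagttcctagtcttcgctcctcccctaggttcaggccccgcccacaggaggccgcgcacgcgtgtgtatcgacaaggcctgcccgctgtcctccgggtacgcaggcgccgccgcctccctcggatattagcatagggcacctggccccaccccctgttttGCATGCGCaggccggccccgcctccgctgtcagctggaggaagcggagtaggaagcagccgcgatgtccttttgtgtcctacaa

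The Ppara run is GC-rich, at 74.7% against a median of 53.0% over 32544 distinct mouse promoters of the same length. It holds 2 overlapping matches to the NRF1 core on opposite strands, from 31 to 22 bases before the start site, and 2 GC boxes (GGGCGG). No AGGTCA lies in it. Esrra holds 1 NRF1 core, from 34 to 27 bases before its start, and 2 GC boxes at 66.0% GC. Of all promoters, 2.73% hold the NRF1 core and 35.9% a GC box. The second start site of Rxra holds AGGTCA once on each strand, starting 87 and 48 bases before the start, a hexamer present in 16.2% of promoters. The first start site of Rxra holds 4 GC boxes at 83.0% GC. A pair of AGGTCA separated by 1 base is the arrangement bound by PPAR with RXR. It is in 0.0399% of promoters and in none of the 17 start-site entries searched, which cover 9 of the genes. Ppargc1b was left out of this search. TCAAGGTCA, the extended element of ERR receptors, is in 0.412% of promoters and also in none of the 17. A match is a string of letters and not a bound site, and the window leaves out distant enhancers.

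Ppara encodes the main PPAR receptor of heart muscle and lies on chromosome 15 (85734910 to 85806851, GRCm38.p6). It was measured by 1 probe, so no other probe can be set beside the values below. At 10 weeks the 4 knockouts read -0.57, -0.83, -0.59 and -1.05 on the log2 scale, and the 4 flox controls 0.13, 0.00, 0.51 and 0.11. The highest knockout, at -0.57, lay below the lowest control, at 0.00. Knockouts averaged -0.76 ± 0.23 (SD, n = 4), and the mean of the controls was 0.19 ± 0.22 (SD, n = 4). The log2 difference was -0.95 ± 0.16 (SE; 95% interval -1.3 to -0.61), a ratio of 0.517 if the log base is 2. At 2 weeks the 3 knockouts read 0.21, -0.02 and -0.39 and the controls 0.07, -0.13, 0.23 and 0.10. These ranges overlapped, and the log2 difference was -0.13 ± 0.17 (SE; 95% interval -0.51 to 0.24), with a limma adjusted p of 0.892. The difference between the knockout effects of both times was -0.82 ± 0.24 (SE) on the log2 scale. From 2 to 10 weeks Ppara differed by -0.69 ± 0.17 within knockouts, with all 4 late arrays below all 3 early ones, and by 0.12 ± 0.16 within controls, where the ranges overlapped.

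**Figure D1:**
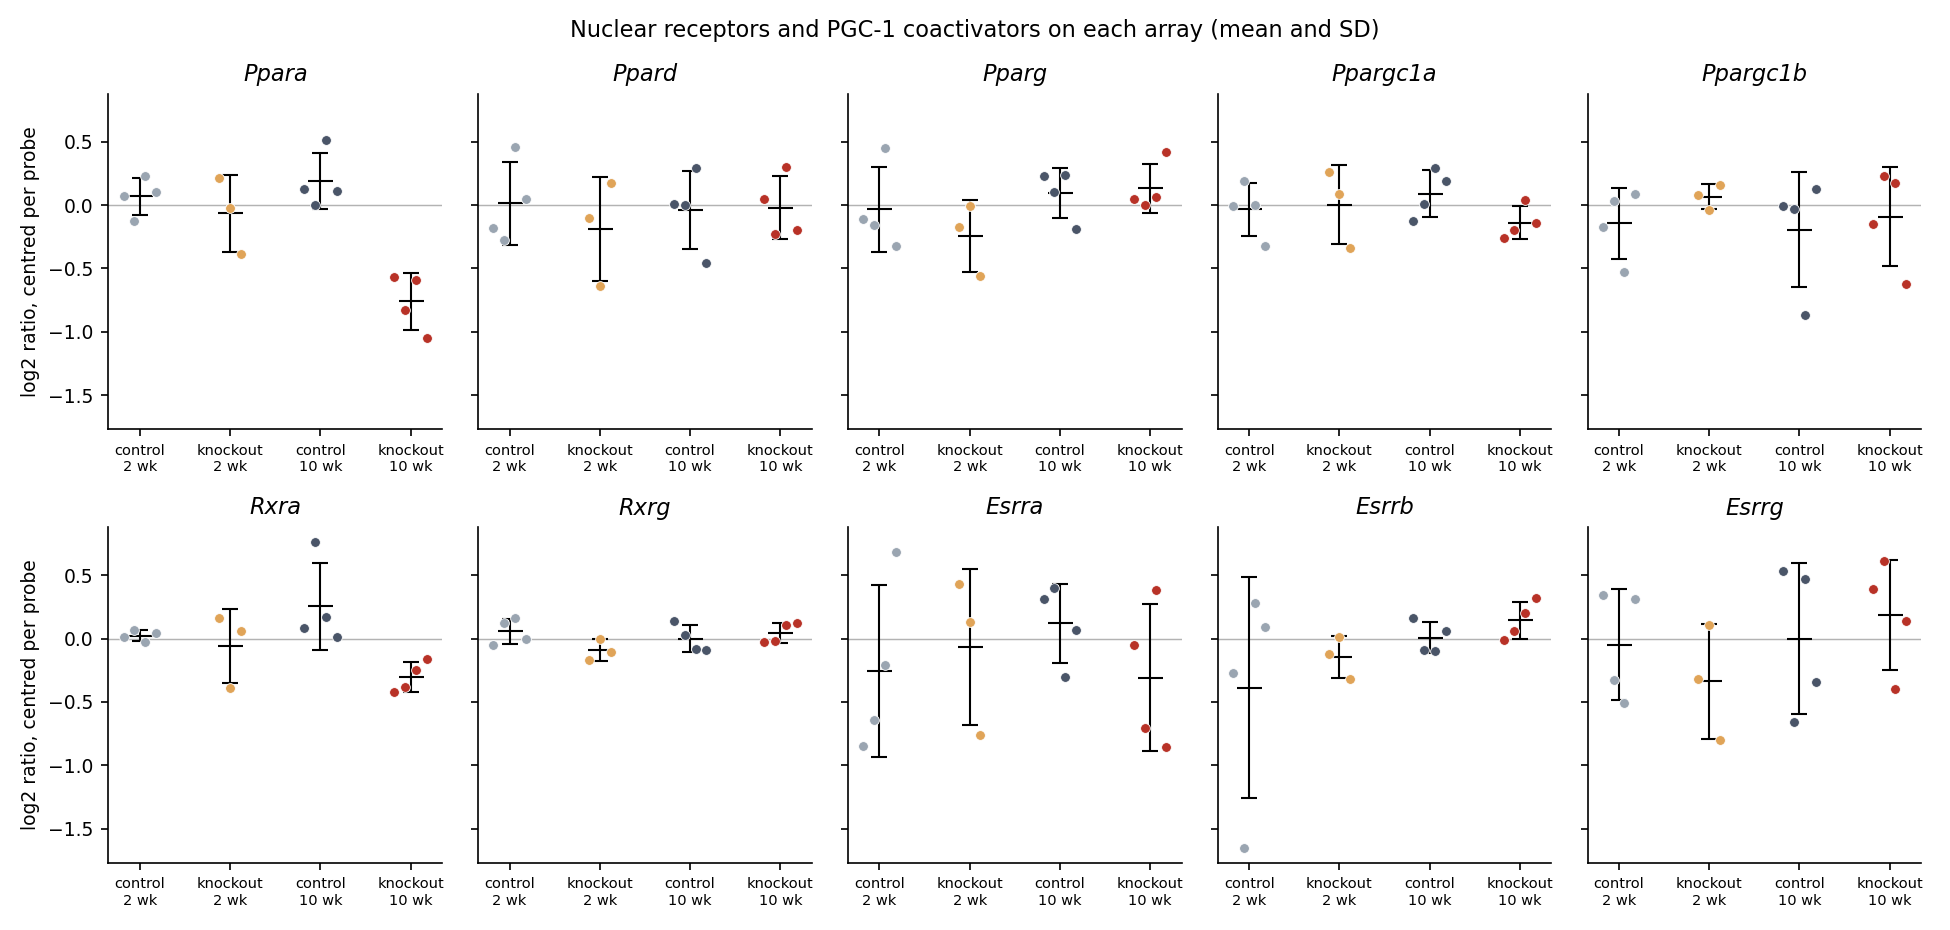
Each panel plots 1 gene, with the log2 ratio centred per probe on the vertical axis and the 4 groups on the horizontal axis. Points are arrays, the long bar is the mean and the short bars are 1 SD either way. The 4 Ppara values of the 10-week knockouts run from -1.05 to -0.57, below the other 11 arrays, of which the lowest is -0.39, whereas most other panels overlap.

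Across the 10 genes, 1 was called lower at 10 weeks at an adjusted p under 0.05, and it was Ppara. Over all 19532 genes limma called 134 at that time, or 0.686%, of which 64 (0.328%) were lower. Ppara was not called when only the 10-week groups entered the fit, or without knockout 10 weeks replicate 2 or replicate 4, at differences of -0.95, -0.93 and -0.86. In 2 of the 10 genes, Ppara and Rxra, all 4 knockouts lay below all 4 controls. Groups did not overlap for 6.6% of all genes at 10 weeks, and all knockouts lay below all controls for 3.36%. Since the genes were chosen with this comparison in view, and Ppara was known to be low, nothing is read from the call or from these shares. The median log2 difference of the 10 genes was 0.03, beside -0.02 over all genes, and 6 of the 10 differences were above 0.

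Rxra encodes the RXR partner with which PPAR receptors bind DNA in most tissues (chromosome 2, 27676445 to 27763319). Its 4 knockouts at 10 weeks read -0.42, -0.38, -0.25 and -0.16 and its controls 0.08, 0.76, 0.17 and 0.01, as the mean of 2 probes. The highest knockout, at -0.16, lay just below the lowest control, at 0.01. The log2 difference was -0.55 ± 0.16 (SE; 95% interval -0.9 to -0.2), and -0.38 without flox control 10 weeks replicate 2, which held the highest value. The 2 probes differed in size. Probe 1 read 0.05, 1.47, 0.28 and 0.23 in controls and -0.83, -0.60, -0.32 and -0.12 in knockouts, a log2 difference of -0.97 ± 0.31 (SE). Probe 2 read 0.11, 0.06, 0.05 and -0.22 in controls and 0.00, -0.15, -0.17 and -0.20 in knockouts, a log2 difference of -0.13 ± 0.10 (SE) with overlapping groups. Over the 15 arrays the probes correlated at r = 0.14, so the gap between the groups came mainly from probe 1. At 2 weeks the difference of the gene mean was -0.08 ± 0.17 (SE, limma adjusted p = 0.941).

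Rxrg, the RXR form most restricted to muscle and brain, lay close to 0 on every array. Its SD over the 15 arrays was 0.103, and 6.03% of all genes had a lower one. At 10 weeks its knockouts ran from -0.03 to 0.12 and its controls from -0.09 to 0.14. The log2 difference was 0.05 ± 0.09 (SE) at 10 weeks, with a 95% interval of -0.15 to 0.24. At 2 weeks it was -0.15 ± 0.10 (SE, limma adjusted p = 0.787).

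The other PPAR genes showed no separation of the genotypes. Ppard, expressed in most tissues and able to switch on many of the same fat-burning genes, read 0.05, -0.23, 0.30 and -0.20 in the 10-week knockouts and 0.01, 0.00, 0.29 and -0.46 in the controls. The arrays overlapped over nearly their whole range, and the difference was 0.02 ± 0.22 (SE; 95% interval -0.45 to 0.49). Pparg, the receptor that drives fat cell formation, read 0.05, 0.00, 0.06 and 0.42 in the 10-week knockouts and 0.23, 0.10, 0.24 and -0.19 in the controls. Its difference was 0.04 ± 0.18 (SE; 95% interval -0.35 to 0.43), and the high value of knockout replicate 4 stood alone in its group. Markers of fat cells (Adipoq, Fabp4, Plin1, Lep, Retn) had means of -0.22 to 0.37 in the 10-week knockouts and -0.23 to 0.12 in the controls, and their part in the Pparg values was not tested. At 2 weeks Ppard differed by -0.20 ± 0.24 and Pparg by -0.21 ± 0.19 (SE, limma adjusted p = 0.877 and 0.832).

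**Figure D2:**
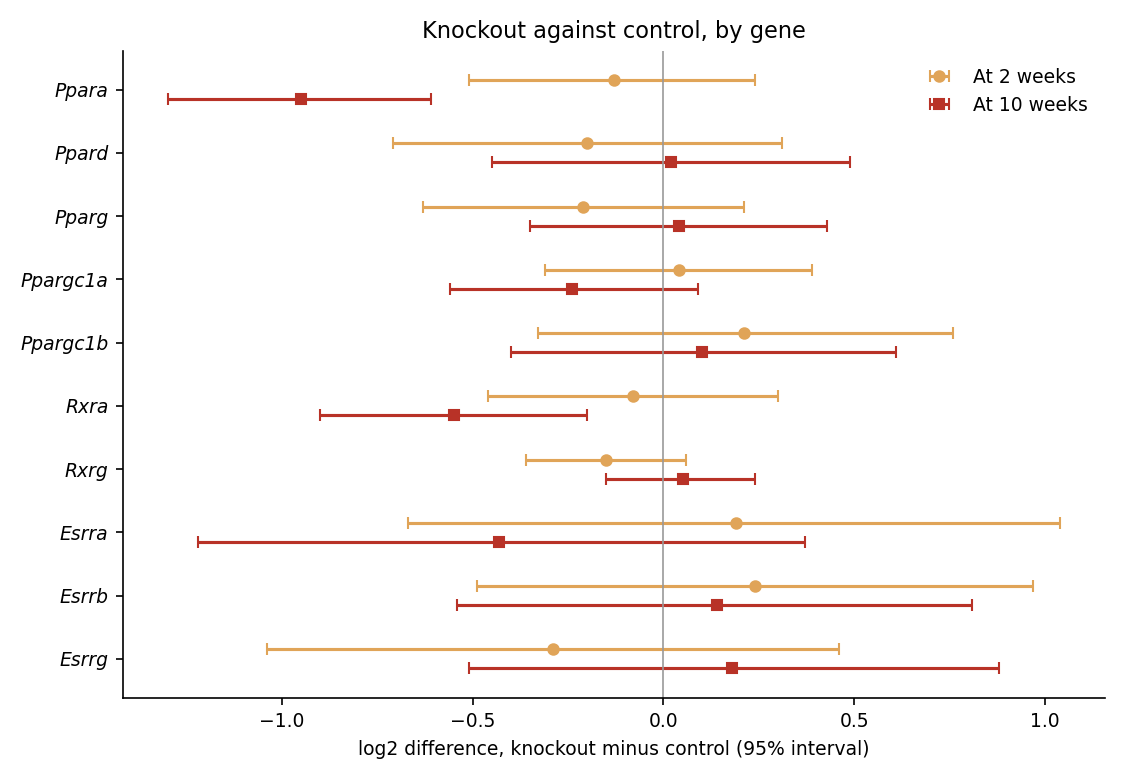
The horizontal axis gives the log2 difference, knockout minus flox control, for each of the 10 genes, with circles for 2 weeks and squares for 10 weeks; bars are 95% intervals from limma. The squares of Ppara, at -0.95, and Rxra, at -0.55, lie furthest to the left; the intervals are not adjusted for the number of genes, and at 10 weeks they describe genes chosen with that comparison known.

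Ppargc1a encodes PGC-1α, the coactivator that responds to fasting, cold and exercise. At 10 weeks it read -0.26, -0.20, 0.04 and -0.14 in knockouts and -0.13, 0.01, 0.29 and 0.19 in controls. Most knockouts lay below most controls, but the groups overlapped, and the difference was -0.24 ± 0.15 (SE; 95% interval -0.56 to 0.09). Its 2 probes gave -0.32 ± 0.13 and -0.15 ± 0.20 (SE) and correlated at r = 0.52 over the arrays. At 2 weeks the difference was 0.04 ± 0.16 (SE, limma adjusted p = 0.972).

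Ppargc1b encodes PGC-1β, which shares many targets with PGC-1α and lies on chromosome 18. It read -0.15, 0.23, 0.17 and -0.62 in the 10-week knockouts and -0.01, -0.03, -0.87 and 0.13 in the controls, a difference of 0.10 ± 0.23 (SE; 95% interval -0.4 to 0.61). In each genotype 1 array lay low, and all 3 probes were low on it. In flox control 10 weeks replicate 3 they read -0.89, -0.76 and -0.95, and in knockout 10 weeks replicate 4 they read -0.57, -0.52 and -0.77. The probes correlated at r = 0.73, 0.90 and 0.69, the closest match between probes among these genes. At 2 weeks the difference was 0.21 ± 0.25 (SE, limma adjusted p = 0.88).

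Some probes of the ERR genes varied widely between arrays of the same group, and others did not. Esrra encodes ERRα, the main partner of PGC-1α at genes for mitochondrial energy production. At 10 weeks it read -0.05, -0.71, 0.38 and -0.86 in knockouts and 0.31, 0.40, -0.30 and 0.07 in controls, a difference of -0.43 ± 0.37 (SE; 95% interval -1.22 to 0.37). The knockouts held the lowest values of that time and also, at 0.38, a value near the top. Almost all of this spread came from probe 2, with an SD over the 15 arrays of 0.99 against 0.11 for probe 1. Probe 1 differed by -0.03 ± 0.10 between genotypes at 10 weeks and probe 2 by -0.82 ± 0.69 (SE). At 2 weeks the difference of the gene mean was 0.19 ± 0.40 (SE, limma adjusted p = 0.941).

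Esrrb, known mainly for its role in mouse embryonic stem cells and placenta, read -0.01, 0.06, 0.20 and 0.32 in the 10-week knockouts and 0.16, -0.09, -0.10 and 0.06 in the controls. The groups overlapped and differed by 0.14 ± 0.31 (SE). The furthest value lay on flox control 2 weeks replicate 2, where probe 1 read -3.39 and probe 2 read 0.09. Esrrg, a receptor that supports the oxidative metabolism of heart muscle after birth, read 0.39, 0.61, -0.40 and 0.14 in the 10-week knockouts and 0.53, -0.66, 0.47 and -0.34 in the controls. Neither genotype stood higher, at a difference of 0.18 ± 0.32 (SE; 95% interval -0.51 to 0.88). The probes correlated at r = -0.16 for Esrrb and 0.25 for Esrrg. At 2 weeks Esrrb differed by 0.24 ± 0.34 and Esrrg by -0.29 ± 0.35 (SE, limma adjusted p = 0.904 and 0.883).

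**Figure D3:**
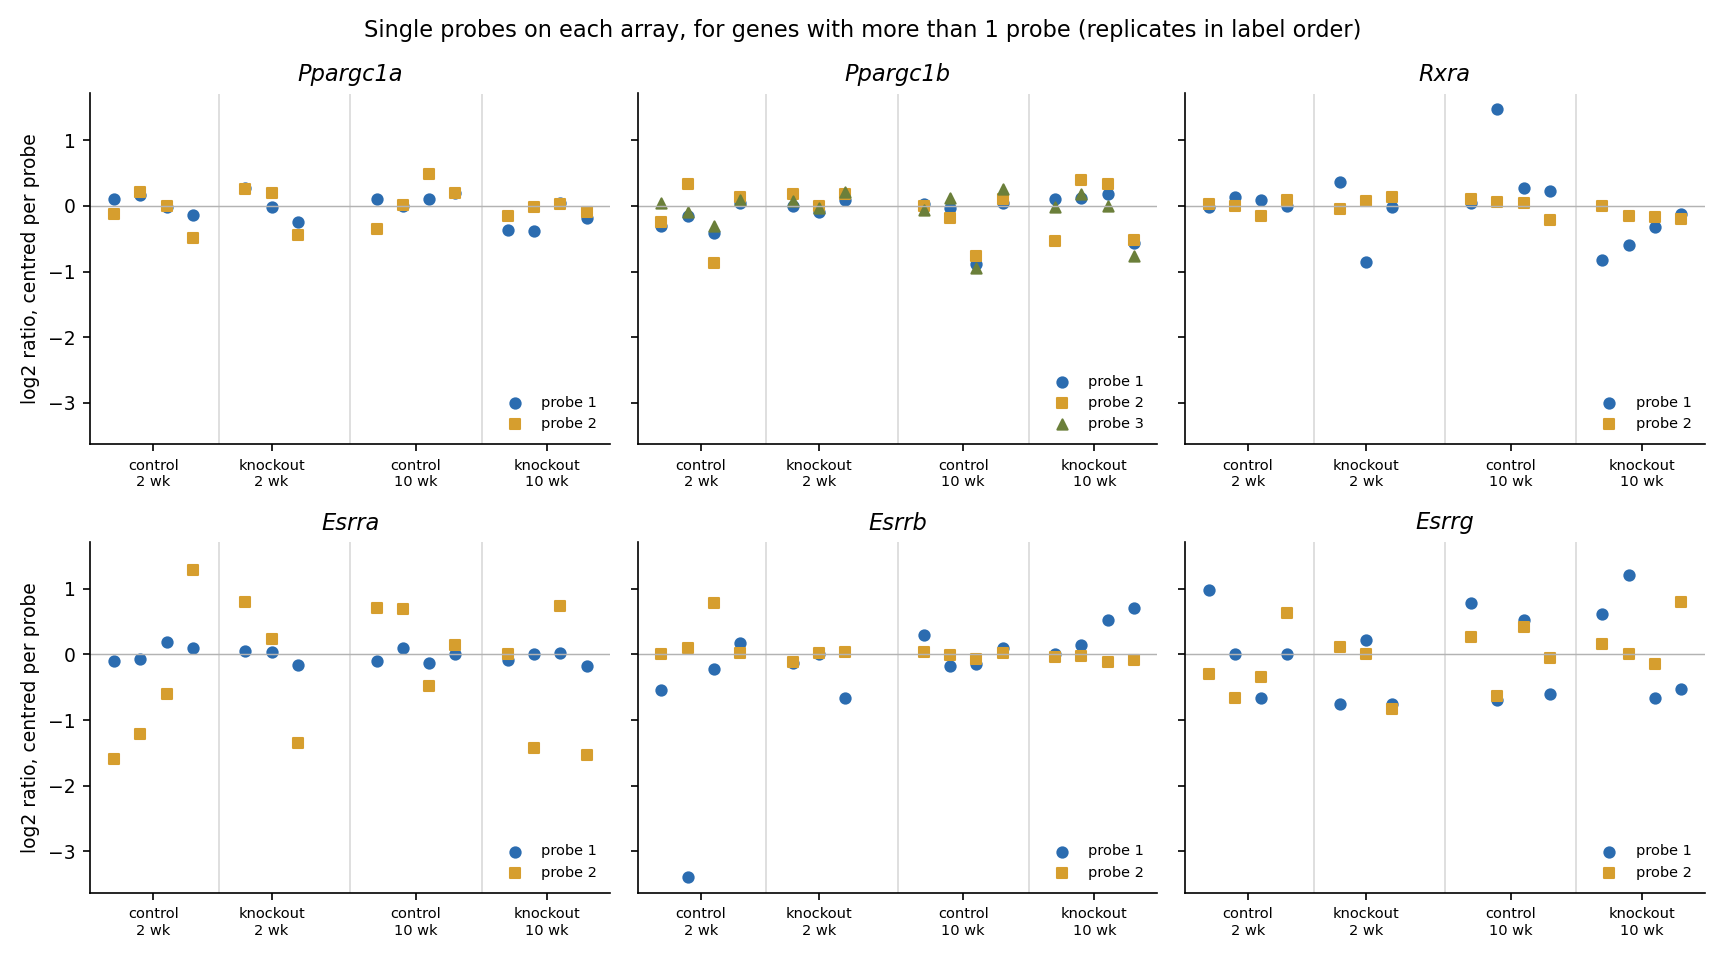
Each panel plots the single probes of a gene with more than 1 probe, with the centred log2 ratio on the vertical axis and arrays in order of their replicate number within the 4 groups; marker shapes are probes. Probes of Ppargc1b move together, whereas probe 2 of Esrra runs from -1.60 to 1.28 while probe 1 stays between -0.17 and 0.19, and probe 1 of Rxra reaches 1.47 on 1 control array where probe 2 reads 0.06.

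At 2 weeks no gene of the 10 was called by limma, with adjusted p-values from 0.787 to 0.972, and none had an unadjusted p under 0.05. Over all genes 1 was called (0.00512%) and 1417 had an unadjusted p under 0.05. No gene of the 10 had groups that did not overlap, beside 8.78% of all genes. The median difference of the 10 was -0.11 against -0.02 over all genes, and 4 of 10 differences were above 0. Leaving out flox control 2 weeks replicate 1, the array with high atrial markers, also gave 0 calls. The intervals are wide, so these values do not show that the genes were alike in both genotypes.

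Time alone moved none of the genes in controls past the threshold. From 2 to 10 weeks in flox controls, the differences of the 10 genes ran from -0.06 to 0.39, with a limma adjusted p of 1.0 for each and unadjusted p-values from 0.177 to 0.888. This comparison shares the 10-week controls with the knockout comparison of that time. No gene of the array was called for time in controls (0.0%), with 815 at an unadjusted p under 0.05. In knockouts the differences from 2 to 10 weeks ran from -0.69 for Ppara to 0.52 for Esrrg, and none of the 10 was called, beside 0.389% of all genes. Ppara had all late arrays below all early ones, and Pparg all late arrays above all early ones, at 0.00 or higher against -0.01 or lower. Groups did not overlap in that comparison for 13.4% of all genes. For the difference between the knockout effects at 10 and at 2 weeks, limma called none of the 10 and none of all genes (0.0%), with 1331 at an unadjusted p under 0.05. The Ppara gap between both times is thus given as a size only.

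Within their groups the genes showed little common movement from array to array. With group means removed, Ppara correlated at r = 0.46 with both Ppargc1a and Esrra and at -0.28 with Rxra over the 15 arrays, which share their scaling. The furthest from 0 was Pparg with Ppargc1b, at r = -0.71. These correlations describe the arrays and carry no test. The 3 genes whose pattern over the 15 arrays was most like Ppara were Gpsm1 (r = 0.92), Midn (r = 0.91) and Ppa2 (r = 0.9), found among all named genes. All were lower in each knockout than in each control at 10 weeks, by -0.69 ± 0.10, -0.70 ± 0.17 and -0.43 ± 0.12 (SE) on the log2 scale. That gap follows largely from the choice, since group differences were kept in the correlation with Ppara. For Rxra they were Egln3 (r = 0.84), Gatc (r = 0.83) and Krt8 (r = 0.82). Egln3, Gatc and Krt8 also had their highest control value, 1.24, 1.06 and 0.77, in flox control 10 weeks replicate 2, the array in which Rxra was highest. Picking genes for their likeness to Rxra over the same arrays favours such a shared peak.

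Targets of PPAR receptors lay on the other side of 0 from Ppara in the 10-week knockouts. Of 37 listed PPAR targets for the use of fatty acids, 34 were measured, and 8 rose and none fell in the knockouts at 10 weeks by limma, beside 0.358% of all genes called higher. Differences were above 0 for 30 of the 34, with a median of 0.43 against -0.02 over all genes. In 19 of the 34 all knockouts lay above all controls, beside 3.24% of all genes. This list and the gene lists below were drawn up with earlier results of these arrays known. Their counts and directions are therefore not independent evidence. The mean of the list ran from 0.39 to 0.50 in the 10-week knockouts and from -0.23 to -0.05 in the controls, on the same arrays on which Ppara was low. At 2 weeks none of the list was called, with 3 at an unadjusted p under 0.05, and the median was 0.05. When only the 10-week groups entered the fit, 4 of the list were called.

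Fabp3, the fatty acid carrier of the heart muscle cell, read 0.93, 0.86, 0.92 and 0.99 in the 10-week knockouts and -0.00, -0.21, -0.07 and -0.13 in the controls. It rose by 1.03 ± 0.10 (SE, limma adjusted p = 0.000355). Acot2 and Acot1, thioesterases that release fatty acids from acyl-CoA in mitochondria and cytosol, rose by 1.89 ± 0.19 and 1.39 ± 0.16 (SE, limma adjusted p = 0.000434 and 0.00107). Because those enzymes are close copies of each other, their probes may share signal. Fgf21, a hormone made under PPARα control in liver, rose by 2.28 ± 0.27 (SE, limma adjusted p = 0.00134) as a mean of 2 probes that disagreed, at 0.32 and 4.24.

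Targets of ERR and PGC-1 in mitochondria had a median difference close to 0, with most genes slightly below it. Of 38 listed genes for respiratory chain, citric acid cycle and mitochondrial fusion, 36 were measured, and 1 fell and none rose at 10 weeks, beside 0.328% of all genes called lower and 0.358% called higher. Differences were below 0 for 29 of the 36, with a median of -0.06 against -0.02 over all genes. An unadjusted p under 0.05 was found for 6 of the 36, and for 1945 of all 19532 genes. In 5 of the 36 all knockouts lay below all controls, and in 1 all lay above, beside 3.36% and 3.24% of all genes. The gene that fell was Cox7a1, the heart and muscle form of a subunit of respiratory complex IV. It read -0.44, -0.49, -0.43 and -0.55 in knockouts and 0.16, 0.02, 0.17 and 0.00 in controls, a log2 difference of -0.56 ± 0.10 (SE, limma adjusted p = 0.0236). Cox6a2, the muscle form of another subunit of complex IV, lay the other way at 0.35 ± 0.08 (SE, limma adjusted p = 0.0795). The Cox7a1 call was lost when only the 10-week groups were fitted (adjusted p = 0.0509), and on leaving out any 10-week array but knockout replicate 3, at adjusted p-values up to 0.0738. At 2 weeks the list had no call, 4 genes at an unadjusted p under 0.05 and a median of -0.07, with 26 of the 36 below 0. The lowest p-values there belonged to Mfn1, a mitochondrial fusion protein, at -0.74 ± 0.22, and Ckmt2, the mitochondrial creatine kinase of heart muscle, at -0.23 ± 0.09 (SE, limma adjusted p = 0.489 and 0.628).

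**Figure D4:**
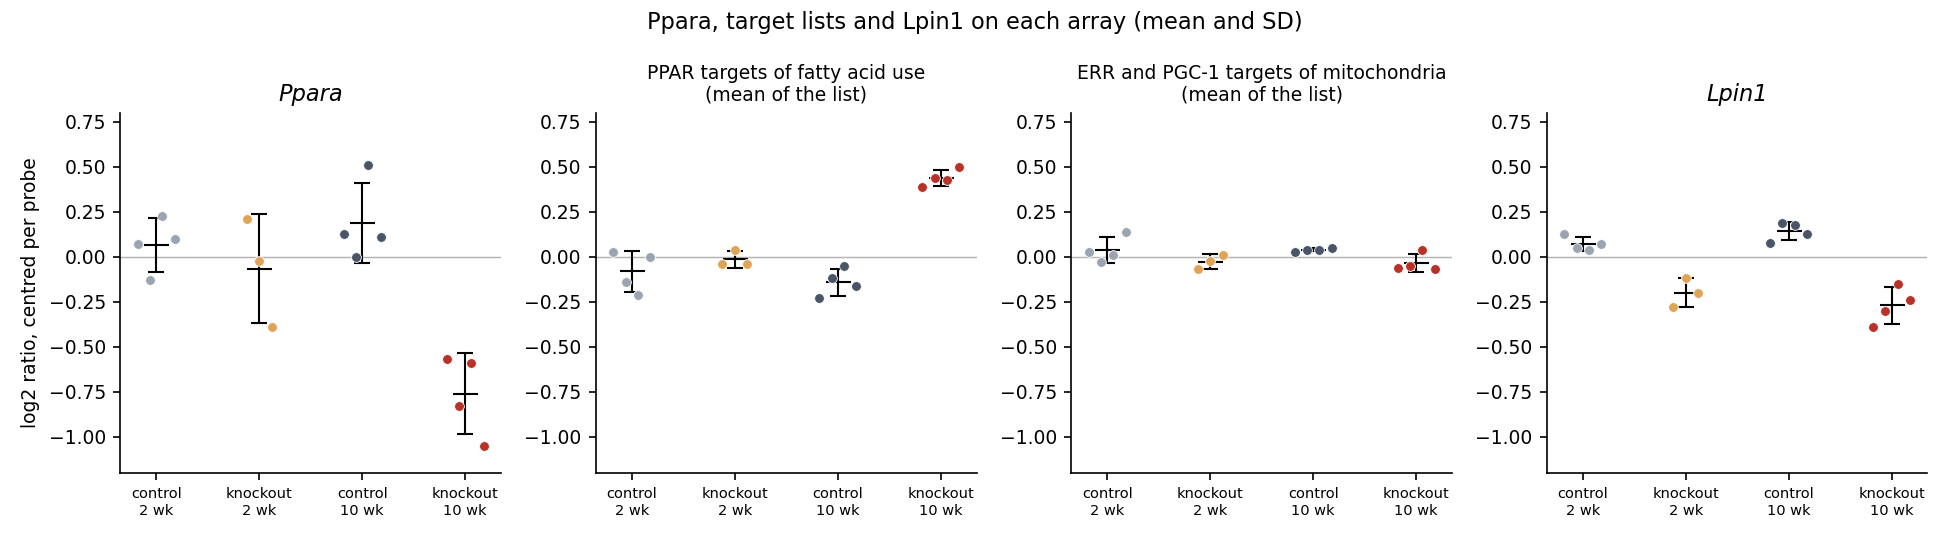
The panels plot Ppara, the mean of the PPAR target list, the mean of the ERR and PGC-1 target list and Lpin1 on each array, as centred log2 ratios, with group mean and 1 SD. In the 10-week knockouts Ppara lies at -1.05 to -0.57 while the PPAR targets lie at 0.39 to 0.50, and the ERR and PGC-1 targets stay within -0.07 to 0.05 at that time in both genotypes.

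Among 25 other coactivators and partners of these receptors, all measured, 1 fell and none rose at 10 weeks, beside 0.328% of all genes called lower. The list's median was -0.21 against -0.02 over all genes. The gene that fell was Lpin1, whose protein lipin 1 makes diacylglycerol for fat synthesis and also, in mouse liver, works with PGC-1α and PPARα on fat-burning genes. Lpin1 read -0.39, -0.30, -0.15 and -0.24 in the 10-week knockouts and 0.08, 0.19, 0.18 and 0.13 in the controls. At 2 weeks it read -0.28, -0.12 and -0.20 in knockouts and 0.13, 0.05, 0.04 and 0.07 in controls. At both times every knockout lay below every control. The log2 difference was -0.41 ± 0.08 (SE, limma adjusted p = 0.0317) at 10 weeks and -0.27 ± 0.09 (SE, limma adjusted p = 0.531) at 2 weeks. Its 4 probes lay between -0.48 and -0.34 at 10 weeks. The call at 10 weeks was lost when only those groups were fitted (adjusted p = 0.115), with the most variable probe alone (0.313), and on leaving out any 10-week array but knockout replicate 3 (up to 0.0922).

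Other members of that list had values without a call at 10 weeks. Yy1, a zinc finger factor that works with PGC-1α at mitochondrial genes, differed by -0.55 ± 0.15, and Ncoa6, a general coactivator of nuclear receptors, by -0.60 ± 0.22 (SE, limma adjusted p = 0.163 and 0.32). At 2 weeks Ncoa3, a coactivator with histone acetyltransferase activity, differed by 0.67 ± 0.20 (SE, limma adjusted p = 0.489), with all knockouts above all controls.

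Corepressors had no limma call at 10 weeks in either direction, with 15 of 17 measured and 3 at an unadjusted p under 0.05. The list's median was -0.06, beside -0.02 over all genes. Of all 19532 genes, 1945 had an unadjusted p under 0.05 in that comparison, a background for the 10-week counts of these lists. Hdac3, the deacetylase of the NCoR repressor complex, had the lowest p of the list, at 0.66 ± 0.15 (SE, limma adjusted p = 0.0732), and all its knockouts lay above all controls. At 2 weeks Twist1, a transcription factor that can repress PGC-1α activity in mouse brown fat, differed by 1.20 ± 0.32 (SE, limma adjusted p = 0.458), also with all knockouts above all controls. Of 27 other nuclear receptors, 24 were measured, with no call at 10 weeks, 4 at an unadjusted p under 0.05 and a median of -0.10. Esr1, an estrogen receptor, differed by 0.21 ± 0.09, and Thrb, a thyroid hormone receptor, by -0.38 ± 0.17 (SE, limma adjusted p = 0.435 and 0.457). Regulators upstream of PGC-1 likewise had no call, with 24 of 25 measured, 3 at an unadjusted p under 0.05 and a median of -0.04. Sirt3, the main deacetylase of mitochondria, differed by -0.43 ± 0.11 at 10 weeks (SE, limma adjusted p = 0.125), and each knockout lay below each control. At 2 weeks Prkaa1, a catalytic subunit of AMP-activated kinase, differed by 0.83 ± 0.18 (SE, limma adjusted p = 0.343).

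Genes that supply or remove fatty acid ligands held 3 calls among 20 at 10 weeks, all higher, beside 0.358% of all genes called higher. The list's median was 0.02 against -0.02 over all genes. These were Fabp3, Acot1 and Acot2, which also stand in the PPAR target list. Acsl3, another acyl-CoA synthetase, differed by 1.58 ± 0.49 (SE, limma adjusted p = 0.214) with overlapping groups.

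Cell type marker means differed in part between the genotypes. The mean of 7 fibroblast markers ran from -0.10 to 0.25 in the 10-week knockouts and from -0.26 to -0.16 in the controls, with all 7 above 0, none called and 1 at an unadjusted p under 0.05. The mean of 7 cardiomyocyte markers ran from -0.27 to -0.03 in the same knockouts and from -0.07 to 0.19 in the controls, with 4 of 7 below 0, none called and none at an unadjusted p under 0.05. The fibroblast mean at 2 weeks lay between 0.15 and 0.83 on the knockout arrays and between -0.17 and 0.27 on the control arrays, with all 7 markers above 0, a median of 0.37, none called and 2 at an unadjusted p under 0.05. The endothelial mean at 2 weeks lay between 0.17 and 0.30 on the knockout arrays and between -0.09 and 0.05 on the control arrays, without overlap, with 5 of 6 markers above 0, none called and 1 at an unadjusted p under 0.05. At 10 weeks the endothelial means overlapped, at -0.04 to 0.03 and -0.14 to 0.19. The part of these markers in the values of the receptor and coactivator genes was not tested.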

How the data were processed

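Ventricle RNA from 15 mice was measured on Agilent arrays of 2 colours, and the labels call the samples biological replicates. Heart RNA (500 ng, Cy5) was hybridised with whole mouse reference RNA (Cy3), per the labels' protocols. The deposited values were read as log2 ratios made by the authors. Scan software, background correction and scaling were not given in the sources used here. Array medians of gene means ran from -0.0196 to 0.0342.

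Probes were named from the platform annotation: 32664 had 1 symbol, 45 had several and were left out, and 93 were control spots. A gene was the mean of its probes. One fit of 4 group means on all 15 arrays was made with limma 3.58.1 in R 4.3.3 (lmFit, eBayes; 11 residual degrees of freedom plus 2.07 prior). Two-sided p-values were adjusted by Benjamini-Hochberg over 19532 genes, with calls at an adjusted p under 0.05. The fit was also run on simulated data with independent noise and planted differences larger than that of Ppara. That run does not show how well smaller differences are found. Groups were taken from the genotype and time in the labels.

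The members and gene lists were chosen with earlier results of these data known, so a list's direction is not independent evidence. Every member is named; of each list, names could come from the 4 genes with the smallest p at 10 weeks and the 2 at 2 weeks, and not all of these are named. Genes most like a member were sought only for members whose groups did not overlap, by Pearson's r, without clone names. Start-site sequences came from RefSeq (GRCm38.p6). Alternatives covered scaling, probe choice, arrays in the fit, moderation, array weights, a replicate block, single probes and leaving out each array. Alternative counts within lists were added after the data were seen.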

Additional observations from a re-analysis of the deposited data

Results flagged for a closer look

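For genes and probes of the 10, 69 groups of 4 arrays were checked for 1 array far from the other 3, and 7 were found; chance gives about 1 in 20. The gene mean of Pparg read 0.42 in knockout 10 weeks replicate 4, against 0.00 to 0.06 in the other knockouts. The gene mean of Ppargc1b read -0.87 in flox control 10 weeks replicate 3, against -0.03 to 0.13 in the others. Its probe 1 read -0.89 on that array and -0.57 in knockout 10 weeks replicate 4, where the other knockouts lay at 0.11 to 0.18. Probe 1 of Rxra read 1.47 in flox control 10 weeks replicate 2, against 0.05 to 0.28, and probe 2 read -0.22 in flox control 10 weeks replicate 4, against 0.05 to 0.11. Probe 2 of Esrrb read 0.79 in flox control 2 weeks replicate 3, against 0.00 to 0.09.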

How the results depend on the processing

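The number of the 10 genes called at 10 weeks, 1 in the fit as reported, was 0 when only the groups compared were fitted and ranged from 0 to 1 when each array was left out; the losses came without knockout 10 weeks replicate 2 and replicate 4. It stayed 1 under the other alternatives, single probes included. Since Ppara has 1 probe, the alternatives of probe choice and single probes left its own values unchanged. They could alter only the moderation and the adjustment, so they say little about the Ppara call. No alternative gave a call among the 10 at 2 weeks, for time in either genotype or for the difference between effects. The Ppara difference at 10 weeks ran from -1.02 to -0.84 with arrays left out and from -0.95 to -0.93 otherwise. Deviations from the group mean were correlated between arrays of different groups. The 21 pairs with the same replicate number lay at r = -0.034 to 0.123, with 1 pair above 0.1. That pair was replicate 3 of the flox controls at 2 and 10 weeks. Pairs with different replicate numbers lay at r = -0.0819 to 0.0427. These correlations cannot decide whether same-numbered arrays shared a batch, and the fit as reported treated the arrays as unpaired. With a replicate block 1 of the 10 was still called at 10 weeks (Ppara, -0.95), while calls over all genes went from 134 to 71 at 10 weeks and from 76 to 31 for time in knockouts, and Cox7a1 and Lpin1 were not called (adjusted p = 0.0609 and 0.0762). Fitting only the groups compared gave 50 and 12 genes in those comparisons, the most variable probe 89 at 10 weeks, single probes 207 and 155 probes, and quantile scaling 47 for time in knockouts. With arrays left out, the 10-week count ran from 61 (without knockout replicate 2) to 142. It was 62, 66, 70, 73, 83 and 88 without knockout replicate 4, control replicates 4, 1 and 2, knockout replicate 1 and control replicate 3. For time in knockouts it ran from 41 to 89, with 41 and 49 without knockout 10 weeks replicate 2 and knockout 2 weeks replicate 2. At 2 weeks it ran from 0 to 10, and the 3 highest counts, 10, 8 and 9, came without knockout 2 weeks replicate 1, 2 or 3. The other alternatives gave 0 to 3 genes at 2 weeks, and single probes 5. With arrays left out, 0 to 4 genes were called for the difference between effects and 0 to 1 for time in controls. The count of PPAR targets called higher ran from 6 to 10 with arrays left out. Scaling moved the median of all genes by at most 0.02. The deposited table carries no background signal, so probes near background could not be told from expressed ones.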

Other observations

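Acta1, the skeletal form of alpha actin, differed by 1.05 ± 0.23 at 10 weeks (SE, limma adjusted p = 0.0629), with each of the 4 knockouts above each of the 4 controls. Nppa, the atrial natriuretic peptide gene, differed by 0.61 ± 0.28 at 10 weeks and 1.28 ± 0.30 at 2 weeks (SE, limma adjusted p = 0.493 and 0.366). Its groups overlapped at 2 weeks. The other 3 atrial markers lay below 0 at both times, and the median of the 4 was -0.23 at 10 weeks and -1.19 at 2 weeks. At 2 weeks flox control replicate 1 stood apart, with a mean of 3.3 over the atrial markers.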
